A study of Mus musculus with 4 samples.

Results

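The comparison described here sets CX3CR1- cells, which carry CD11c and CD11b but not the fractalkine receptor CX3CR1, against CD11b+ cells, which carry CD11b but not CD11c. Both were sorted from large-intestinal lamina propria, the layer of the gut wall beneath the lining cells, of mice of the inbred strain C57BL/6J. The series holds 4 arrays, 1 per population, and this comparison uses 2 of them. The other populations are CD11chigh CD11b- dendritic cells (DCs) and CD11c+ CD11b+ CX3CR1high macrophages, which are used here only to place the values. No treatment is given for any group, and age, sex, the number of mice and whether mice were pooled are not given in the sources used here. The labels also call the CX3CR1- cells DCs and the CD11b+ cells macrophages. The populations are defined by surface staining alone, so each array measures whatever cells the gate held. The members are the probe sets that name exactly 1 gene and are not controls, 20380 of 22690 on the array, read as 12393 genes with 1 probe set each.

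Conventional DCs and macrophages both present antigen in the gut wall but come from different precursors. DCs depend on the growth factor receptor Flt3 and are marked by the transcription factor Zbtb46. When they mature they turn on the chemokine receptor Ccr7, move to the draining lymph node and prime T cells there. Blood monocytes enter the gut wall through Ccr2 and become CX3CR1high macrophages, which stay in the tissue, take up dying cells and bacteria, and can make interleukin 10.

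Values are MAS5 signals, linear intensities as the authors deposited them, with the same trimmed mean on every array. A floor was set at 103, the median over all probe sets and arrays, because lower signals have no reliable ratio. Where 1 of the signals fell under the floor, the ratio is given as at least so many fold, and where both did, none is given. There is 1 array per population and so no replicate, test or p-value, and every difference below is one between these arrays. The number of arrays limits the precision. Where a gene had several probe sets, their log2 ratios differed with an SD of 0.31 over 2157 genes, a spread that holds no difference between mice or sorts. Because whole populations were hybridised, fewer cells of a type and less RNA per cell cannot be told apart. Ratios of 3' over 5' control signals, which grow as RNA is less intact, were 3.40 in the CX3CR1- cells and 2.17 in the CD11b+ cells for Gapdh, and 2.76 and 3.18 for Actb. They were lower in the arrays used to place the values, with 0.791 in the DCs and 1.08 in the CX3CR1high macrophages for Gapdh, and 1.11 and 1.68 for Actb. Per the labels, RNA was selected for little degradation. The part of RNA quality in the results was not tested.

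The genes of the gate were read first. Itgax, which encodes CD11c, had a signal of 8412 in the CX3CR1-, 1864 in the CD11b+, 5893 in the DC and 1826 in the CX3CR1high array. It was 4.51-fold higher in the CX3CR1- than in the CD11b+ cells, but the CD11c-negative population still lay well above the floor. The CX3CR1high macrophages, also gated as CD11c+, had a signal close to that of the CD11c-negative cells. Itgax RNA thus differed with the gate in the compared arrays but did not follow it across all arrays. Itgam, which encodes CD11b, was within 2-fold between the populations (408 against 514). Cx3cr1 stood at 291 in the CX3CR1-, 638 in the CD11b+, 65.2 in the DC and 1499 in the CX3CR1high array, 2.19-fold lower in the CX3CR1- cells yet above the floor there. Itgae, which encodes CD103, was 374 against 39.2, at least 3.63-fold higher, and its signal in the DCs was 4962.

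A ratio could be formed for 7377 genes, of which 42 lay at least 4-fold higher in the CX3CR1- cells (0.569% of those genes) and 36 at least 4-fold lower (0.488%). At a limit of 2-fold the counts were 262 higher (3.55%) and 383 lower (5.19%). Each list count below is to be set beside these shares. A list member under the floor in 1 array has a ratio only through the other array, so it could be counted in that direction alone. Where only 1 or 2 members of a list differ, the count may lie near them and says little about the list. The lists were chosen with earlier results of these data known. The median log2 ratio over all genes with a ratio was -0.06, and 91.3% lay within 2-fold. The largest ratios among the higher genes were those of Ccl22, Ccl17, Ccr7, Serpinb9 and Klrb1b, and among the lower genes those of Chil3, S100a8, S100a9, Hp and Igkv15-103. Of 26 further probe sets of the higher genes, 14 were higher by 2-fold or more and 0 lower by as much. Of 20 further probe sets of the lower genes, 12 were lower by 2-fold or more and 0 higher. With the medians of all arrays made equal, the higher and lower counts were 46 and 26, so that the higher share moved from 53.8% to 63.9%.

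**Figure D1:**
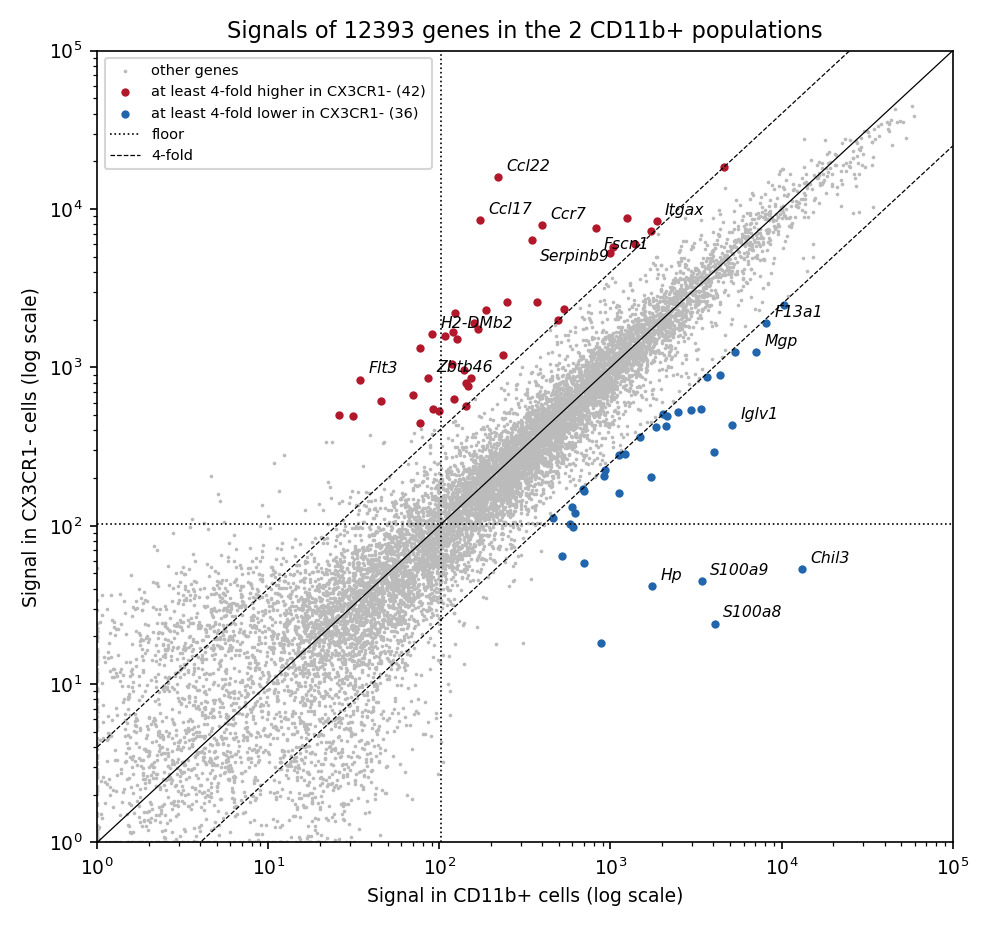
Signals of 12393 genes in the CX3CR1- cells (vertical, log scale) against the CD11b+ cells (horizontal, log scale), 1 array each, with dotted lines at the floor and dashed lines at 4-fold. The 42 higher genes lie above the upper dashed line, with Ccl22 furthest from the diagonal, and the 36 lower genes lie below the lower one, with Chil3, S100a8 and S100a9 furthest out.

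Genes of mature or migratory DCs gave the largest ratios among the higher genes with both signals above the floor. Ccl22, a chemokine that draws CCR4-bearing T cells, had signals of 15935 in the CX3CR1-, 220.3 in the CD11b+, 6194 in the DC and 393 in the CX3CR1high array. It was 72.3-fold higher in the CX3CR1- than in the CD11b+ cells and highest of all populations there. Ccl17, a second ligand of the same receptor, stood at 8559.5 in the CX3CR1-, 174 in the CD11b+, 9138 in the DC and 348 in the CX3CR1high array, a ratio of 49.3-fold. The CX3CR1- and DC arrays were close to each other for it and far above both other arrays. Ccr7, the receptor for the lymph node chemokines CCL19 and CCL21, was 7927 in the CX3CR1-, 397 in the CD11b+, 8091 in the DC and 576 in the CX3CR1high array, a ratio of 20.0-fold, and again the CX3CR1- and DC signals were nearly equal. Fscn1 encodes fascin, which bundles actin in the dendrites of mature DCs. Its signals were 7615 in the CX3CR1-, 819 in the CD11b+, 4159 in the DC and 1579 in the CX3CR1high array, so it was 9.30-fold higher. Another Fscn1 probe set gave 671 against 287, a ratio of 2.34-fold, and the remaining ones were under the floor in both arrays, so that the mean over its probe sets gave a log2 ratio of 0.42, short of the call. Serpinb9, an inhibitor of granzyme B, was 6409.9 against 346 and 18.5-fold higher, and its relative Serpinb6b was 1504 against 127 and 11.8-fold higher. Both were higher still in the DCs, at 11285 and 7224.

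The start-site sequences of the chemokine pair and of the calprotectin pair described below are shown because in each pair both genes moved the same way and lie on the same chromosome. They come from RefSeq for GRCm38.p6, 5' to 3' on the gene's strand, from 250 bases before to 50 after the gene start. Capitals mark matches on either strand to AGGAAGT (a PU.1-type motif), TTGCNNAA (a C/EBP-type motif), TATAAA or the kappaB motif. The coordinates are chr8:94745434-94745733 (+) for Ccl22, chr8:94810203-94810502 (+) for Ccl17, chr3:90668821-90669120 (+) for S100a8 and chr3:90695672-90695971 (-) for S100a9.
Ccl22: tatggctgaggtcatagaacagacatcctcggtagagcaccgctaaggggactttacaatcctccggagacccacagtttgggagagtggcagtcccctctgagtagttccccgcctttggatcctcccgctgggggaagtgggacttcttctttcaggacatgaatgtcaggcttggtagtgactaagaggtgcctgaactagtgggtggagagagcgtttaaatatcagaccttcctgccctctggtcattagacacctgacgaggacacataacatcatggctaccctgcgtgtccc
Ccl17: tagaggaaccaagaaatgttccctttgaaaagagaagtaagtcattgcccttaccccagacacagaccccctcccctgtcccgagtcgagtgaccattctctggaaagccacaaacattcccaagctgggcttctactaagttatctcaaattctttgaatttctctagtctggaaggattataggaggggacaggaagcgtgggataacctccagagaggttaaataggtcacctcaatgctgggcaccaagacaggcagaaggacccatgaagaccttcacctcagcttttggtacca
S100a8: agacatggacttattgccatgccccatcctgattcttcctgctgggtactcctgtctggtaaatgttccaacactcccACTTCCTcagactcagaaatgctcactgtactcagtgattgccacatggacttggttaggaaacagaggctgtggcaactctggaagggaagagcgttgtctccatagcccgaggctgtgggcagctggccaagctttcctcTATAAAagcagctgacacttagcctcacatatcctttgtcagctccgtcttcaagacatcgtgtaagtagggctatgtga
S100a9: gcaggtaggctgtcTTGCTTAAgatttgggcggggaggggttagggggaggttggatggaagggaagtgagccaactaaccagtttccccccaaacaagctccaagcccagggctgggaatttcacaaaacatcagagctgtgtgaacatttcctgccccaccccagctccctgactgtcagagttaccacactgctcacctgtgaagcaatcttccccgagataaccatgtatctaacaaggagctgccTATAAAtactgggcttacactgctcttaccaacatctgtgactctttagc
None of the 4 motifs was found in the Ccl22 and Ccl17 windows, S100a8 held AGGAAGT and TATAAA, and S100a9 held TTGCNNAA and TATAAA. Promoters, of which a gene may have several, were found for 36 of the 42 higher and 21 of the 36 lower genes. AGGAAGT was in those of 6 higher and 6 lower genes, TTGCNNAA in 7 and 5, TATAAA in 7 and 7, and the kappaB motif in 2 and 0. Among the 9887 genes of the array with a promoter, 10.5% held AGGAAGT, 11.1% TTGCNNAA, 11.9% TATAAA and 6.18% the kappaB motif.

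Over the whole list 9 of 20 mature or migratory DC genes that had a ratio were higher by 2-fold or more and 1 was lower, with a median log2 ratio of 0.75 against -0.06 over all genes with a ratio. Those higher beside the genes above were Tnfrsf9 (452 against 119), a costimulatory receptor, Birc2 (1797 against 782), an inhibitor of apoptosis, and Socs2 (1189 against 556), a brake on cytokine signals. The lower gene was Arc (103 against 268), whose CX3CR1- signal was just under the floor. Other members were within 2-fold, among them Cd83 (20323 against 14954), Birc3 (8471 against 5886) and Nfkb2 (3543 against 2876). Il4i1 and Ido1, both enzymes of amino acid breakdown, fell below the floor in both arrays.

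The genes that define conventional DCs were also higher. Flt3, the receptor for the DC growth factor FLT3 ligand, had signals of 837 in the CX3CR1-, 34.4 in the CD11b+, 2579 in the DC and 19.0 in the CX3CR1high array, a ratio of at least 8.13-fold. Zbtb46, a transcription factor of conventional DCs, stood at 861 in the CX3CR1-, 85.6 in the CD11b+, 813 in the DC and 118 in the CX3CR1high array, a ratio of at least 8.37-fold. A second Zbtb46 probe set gave 456 against 54.6, a ratio of at least 4.44-fold. Kit, the stem cell factor receptor, was 1917 in the CX3CR1-, 159 in the CD11b+, 1897 in the DC and 94.6 in the CX3CR1high array, a ratio of 12.1-fold. Dpp4, a surface peptidase of DCs also known as CD26, was 759 against 147 and 5.15-fold higher. For Zbtb46 and Kit the CX3CR1- signals were slightly above those of the DCs, and for Flt3 and Dpp4 they lay between the DC and CD11b+ signals. In the whole list of shared conventional DC genes 6 of 11 were higher and 0 lower (median log2 ratio 1.43). The others higher were Traf1 (4990.3 against 1853), a signalling adaptor of TNF receptors, and Kmo (381 against 90.2), an enzyme of the kynurenine pathway. Flt3, Zbtb46, Kmo, Bcl11a and Cd200r1 had a ratio only because they passed the floor in the CX3CR1- cells. They could therefore not be counted as lower. Over the processing settings the list median ran from 0.87 to 1.89.

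Genes that set the kinds of DC apart split. Among genes of CD11b+ type DCs (cDC2) the lectins Cd209a (2603 against 373, 6.97-fold), Mgl2 (3255 against 963, 3.38-fold) and Clec10a (2596 against 1039, 2.50-fold) were higher. Their DC signals were 381, 218 and 244, and their CX3CR1high signals 542, 2291 and 1952. Mgl2 and Clec10a were thus also high in the CX3CR1high macrophages. Irf4, the transcription factor of this lineage, was 979 against 495, just within 2-fold, and Sirpa, its usual surface marker, was 3488 against 3873. In all, 3 of 11 cDC2 genes were higher and 0 lower (median 0.28). Among genes of CD103-type DCs (cDC1), 4 of 8 were higher and 0 lower (median 1.04). These were Batf3 (724 against 238), a transcription factor that cDC1 need, the adhesion molecule Cadm1 (906 against 296), Cd24a (9830.4 against 4332) and Itgae. The defining cDC1 gene Xcr1 was under the floor in both (42.1 against 5.02), as was Tlr3 (42.1 against 52.9). Irf8, which cDC1 also need, was 1619 against 2322, and its DC signal was 11382.

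**Figure D2:**
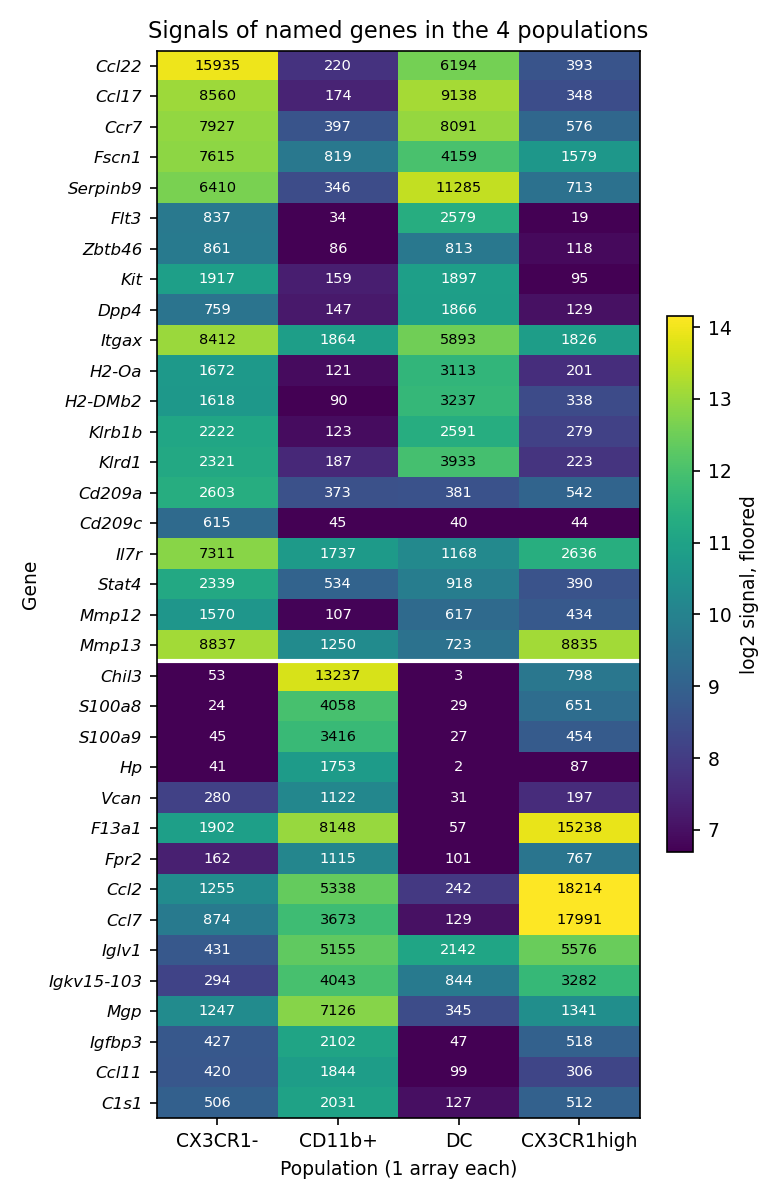
Signals of 35 named genes (rows) in the 4 populations (columns, 1 array each), printed in each cell and coloured by log2 signal after the floor. Above the white line are genes higher in the CX3CR1- than the CD11b+ cells, most of which are also high in the DCs but not Cd209a, Cd209c, Il7r and Mmp13. Below it are lower genes, most of which are low in the DCs.

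Among MHC class II genes 2 of 8 were higher and 0 lower. H2-Aa, a class II alpha chain, was 27164 against 24996, and the invariant chain Cd74 was 31844 against 34502, both within 2-fold. The highest signals of any probe set on these arrays were 45013 and 64755. The genes that differed encode regulators of peptide loading. H2-Oa, a chain of the inhibitor H2-O, was 1672 in the CX3CR1-, 121 in the CD11b+, 3113 in the DC and 201 in the CX3CR1high array, a ratio of 13.8-fold. H2-DMb2, a chain of the loading factor H2-M, was 1618 in the CX3CR1-, 90.3 in the CD11b+, 3237 in the DC and 338 in the CX3CR1high array, a ratio of at least 15.7-fold. Both were lower than in the DCs and far above the CX3CR1high macrophages. The partner chain gene H2-DMa was 9686 against 5273, within 2-fold. No member of the MHC class I pathway list differed by 2-fold, with 14 of 14 within it.

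Costimulatory genes were in part higher, with 3 of 13 members higher and 1 lower (median 0.49). Cd80, a ligand of the T cell receptors CD28 and CTLA-4, was 3673 in the CX3CR1-, 1017 in the CD11b+, 1559.8 in the DC and 845 in the CX3CR1high array, 3.61-fold higher and highest in the CX3CR1- cells. The PD-1 ligand gene Pdcd1lg2 was 431 against 124 (3.47-fold) and Cd40, which receives help from T cells, was 4461 against 1809.5 (2.47-fold). Cd86 (6841 against 4282) and the other PD-1 ligand Cd274 (4181 against 2098) were within 2-fold. Lgals9, which encodes galectin-9, was 2.07-fold lower.

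Of the cytokine genes 2 of 14 were higher and 1 lower. Il12b, the subunit shared by interleukins 12 and 23, was 496 in the CX3CR1-, 31.4 in the CD11b+, 1066 in the DC and 68.0 in the CX3CR1high array, a ratio of at least 4.82-fold. A second Il12b probe set gave 176 against 33.7, a bound of 1.71-fold only. Ebi3, a subunit of interleukin 27, was 3028 against 1187 (2.55-fold). The lower gene was the B cell factor Tnfsf13b (173 against 551). Il10 (3003 against 2548), Il1b (29043 against 32352), Il6 (5274 against 6067) and Tnf (745 against 1305) were within 2-fold. Aldh1a2, the enzyme with which gut DCs make retinoic acid, was 487 in the CX3CR1-, 175 in the CD11b+, 348 in the DC and 99.4 in the CX3CR1high array and 2.79-fold higher, while Aldh1a3, another such enzyme, was 64.9 against 301 and at least 2.93-fold lower. Over the retinoic acid and TGF-beta list 1 of 15 were higher and 3 lower (median -0.61). The others lower were Ltbp1, which binds latent TGF-beta, and Rxra, which has another probe set at least 2-fold the opposite way.

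Chemokine genes moved in both directions, with 3 of 23 higher and 7 lower. Beside Ccl22 and Ccl17, Ccl5 was higher (3425 against 1299, 2.64-fold). The monocyte attractants were lower. Ccl2 stood at 1255 in the CX3CR1-, 5338 in the CD11b+, 242 in the DC and 18214 in the CX3CR1high array (4.25-fold lower). Ccl7 stood at 874 in the CX3CR1-, 3673 in the CD11b+, 129 in the DC and 17991 in the CX3CR1high array (4.20-fold lower), and Ccl12 at 167 in the CX3CR1-, 701 in the CD11b+, 49.6 in the DC and 3031 in the CX3CR1high array (4.20-fold lower). All 3 were highest by far in the CX3CR1high macrophages, as were Ccl8 (895 against 2326, with 19869 in those macrophages) and the platelet factor gene Pf4 (3963 against 8661, with 24576), which were also lower. Ccl11, which draws eosinophils, was 420.3 in the CX3CR1-, 1844 in the CD11b+, 98.6 in the DC and 306 in the CX3CR1high array (4.39-fold lower). Cxcl12, a chemokine of stromal cells, was 1289.9 against 4694 (3.64-fold lower), and both had their highest signal in the CD11b+ cells. Among chemokine receptors 1 of 12 was higher, Ccr7, and 3 were lower, which were Cx3cr1, Ackr3 and Ccr10. Ccr2, through which monocytes enter the tissue, was 752 against 1482, just within 2-fold.

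Some gene families were gathered by symbol after the values had been seen, so their counts support nothing. This holds for the killer cell lectin-like receptors and CD209 lectins. It also holds below for the interleukin receptor, STAT, matrix metalloproteinase, immunoglobulin, IGF-binding protein, ribosomal protein, respiratory chain and integrin genes. Many members of the lectin families had no ratio, and some had one because they passed the floor in the CX3CR1- but not in the CD11b+ cells. Of 16 killer cell lectin-like receptor genes measured, 6 had a ratio and 4 were called higher. Klrb1b was 2222 in the CX3CR1-, 123 in the CD11b+, 2591 in the DC and 279 in the CX3CR1high array (18.1-fold). Klrd1, which encodes CD94, was 2321 in the CX3CR1-, 187 in the CD11b+, 3933 in the DC and 223 in the CX3CR1high array (12.4-fold). Both were close to or below the DC signals and far above the other arrays. Klra17 was 672 against 70.0 (at least 6.53-fold) and Klrk1, which encodes NKG2D, was 574 against 143 (4.01-fold). In the T, NK and innate lymphoid cell list 2 of 8 genes, Klrk1 and Il7r, were higher and 1, Cd28, lower, with summed signals of 9004 against 3162, most of them from Il7r. At or above the floor were 5 and 7 of 16 genes, among them Cd2 (326 against 191) and Thy1 (198 against 317) in both arrays, Cd4 (143 against 26.9) in the CX3CR1- cells and Gzmb (98.8 against 151) in the CD11b+ cells. The part of such cells in these ratios was not tested. The NK receptor gene Ncr1 (14.6 against 13.4), Nkg7 (45.3 against 5.64) and the T cell receptor complex genes Cd3d (43.2 against 85.8), Cd3e (20.5 against 42.3) and Cd3g (13.8 against 27.0) were under the floor in both arrays. Of 7 CD209 lectin genes measured, 4 had a ratio. Of these, 3 were higher, Cd209a, Cd209d (342 against 68.4) and Cd209c, and 1, Cd209f, was lower (113 against 259). Cd209c was 615 in the CX3CR1-, 45.4 in the CD11b+, 40.2 in the DC and 44.2 in the CX3CR1high array, above the floor in the CX3CR1- cells alone and at least 5.98-fold higher. Both lectin families hold near-identical copies that a probe set may not tell apart.

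Cytokine receptor and signalling genes were also among those higher. Of 31 interleukin receptor genes measured, 19 had a ratio, of which 4 were higher by 2-fold or more and 15 within 2-fold. The 4 higher ones are named here. Il7r, the interleukin 7 receptor, was 7311 in the CX3CR1-, 1737 in the CD11b+, 1168 in the DC and 2636 in the CX3CR1high array, 4.21-fold higher and highest in the CX3CR1- cells, and a second probe set gave 6.37-fold (962 against 151). Il1r2, a decoy receptor for interleukin 1, was 18326 in the CX3CR1-, 4581 in the CD11b+, 14910.3 in the DC and 5069.8 in the CX3CR1high array, just past the limit of 4-fold. Il21r (926 against 345) and Il2ra (282 against 12.3) were 2.69-fold and at least 2.74-fold higher. Of 5 STAT genes 2 were called. Stat4, which carries interleukin 12 signals, was 2339 against 534 (4.38-fold), and Stat5a, which carries those of GM-CSF and others, was 2001 against 493 (4.06-fold). Vdr, the vitamin D receptor gene, was chosen after its value was seen. It was 2194 in the CX3CR1-, 768 in the CD11b+, 661 in the DC and 529 in the CX3CR1high array and 2.85-fold higher.

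The remaining higher genes had mixed functions. Of 8 matrix metalloproteinase genes with a ratio 2 were higher, Mmp12 and Mmp13, which cleave elastin and collagen, and 3 were lower, Mmp2 (683 against 1387), Mmp23 (44.9 against 269) and Mmp8. Mmp12 stood at 1570.0 in the CX3CR1-, 107 in the CD11b+, 617 in the DC and 434 in the CX3CR1high array (14.6-fold). Mmp13 stood at 8837 in the CX3CR1-, 1250.2 in the CD11b+, 723 in the DC and 8835 in the CX3CR1high array (7.07-fold), so that the CX3CR1- cells and the CX3CR1high macrophages were nearly equal for it. Dnase1l3, a secreted DNase, was 1334 in the CX3CR1-, 76.8 in the CD11b+, 606 in the DC and 448 in the CX3CR1high array (a log2 ratio of at least 3.70). A second Dnase1l3 probe set gave 175 against 17.7, a bound of 1.70-fold only, and its DC signal was higher, at 277. Scin, an actin-severing protein, was 498 against 26.0 (at least 4.84-fold), and Plet1 was 2603 against 250.1 (10.4-fold). Arap2 (1752 against 168, 10.4-fold), the kinase gene Alpk2 (1047 against 119, 8.83-fold), Hepacam2 (534 against 99.4, at least 5.19-fold) and Lad1 (544 against 91.7, at least 5.29-fold) completed those named by rank. Chosen after their values were seen, Sema7a (5260.3 against 1001, 5.26-fold), the calcitonin receptor partner Ramp3 (6034 against 1390.0, 4.34-fold) and the cyclin Ccnd2 (5769.8 against 1034, 5.58-fold) can be added. The 6 Ccnd2 probe sets that had a ratio all lay 3.14-fold higher or more.

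Cell cycle genes were partly higher, with 8 of 19 higher and 0 lower (median 0.98). Stmn1, a regulator of microtubules, was 3463 against 1067, Top2a, which untangles DNA, 683 against 251, and the replication licensing gene Mcm7 1406 against 485. The proliferation marker Mki67 was 2492 against 1098. Pcna (5514 against 6820.1) and Mcm2 (359 against 474) were within 2-fold. The DC signals of Stmn1, Top2a and Mcm7 were higher still, at 5402, 1098 and 2161, while that of Mki67 was lower, at 1299.

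In the other direction the largest ratios were those of Chil3 and Hp from the monocyte list and S100a8 and S100a9 from the neutrophil list. Chil3, a chitinase-like lectin of monocytes and alternatively activated macrophages, had signals of 53.3 in the CX3CR1-, 13237 in the CD11b+, 3.26 in the DC and 798 in the CX3CR1high array, and was at least 129-fold lower in the CX3CR1- cells. S100a8 and S100a9 encode the 2 chains of calprotectin, an antimicrobial protein of neutrophils and monocytes, and their start-site sequences are given above. S100a8 was 24.1 in the CX3CR1-, 4058 in the CD11b+, 28.6 in the DC and 651 in the CX3CR1high array, at least 39.4-fold lower, and S100a9 was 44.5 in the CX3CR1-, 3416 in the CD11b+, 26.7 in the DC and 454 in the CX3CR1high array, at least 33.2-fold lower. Hp, which encodes haptoglobin, was 41.5 in the CX3CR1-, 1753 in the CD11b+, 2.39 in the DC and 86.5 in the CX3CR1high array, at least 17.0-fold lower. For all 4 the CX3CR1- and DC signals were under the floor and the CD11b+ signal was the highest of the series. Vcan, a proteoglycan of classical monocytes, was 279.9 against 1122 (4.01-fold), just past the limit, and the coagulation factor F13a1 was 1902 in the CX3CR1-, 8148 in the CD11b+, 57.4 in the DC and 15238 in the CX3CR1high array (4.28-fold lower). Of 17 monocyte genes 8 were lower and 0 higher (median -0.98). The others lower were Clec4e (2817 against 10918), a receptor for mycobacterial cord factor, Plac8 (4087 against 14116), Csf3r (379.9 against 1149), the G-CSF receptor, and Thbs1 (5979 against 15215). Lyz2 (25411 against 44238), S100a4 (19758 against 16540.2), S100a6 (10667 against 12078) and Fn1 (5494 against 8235) were within 2-fold. Fpr2, a receptor for formylated bacterial peptides, was 162 against 1115 (6.90-fold lower), and Slfn4 was 102 against 577 (at least 5.61-fold lower).

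More neutrophil markers passed the floor in the CD11b+ than in the CX3CR1- cells. In that list 6 of 12 genes were lower and 1, Il1r2, was higher. S100a8, S100a9, Lcn2, Mmp8, Ngp, Camp and Ltf had a ratio only because they passed the floor in the CD11b+ cells. They could not be counted as higher, and of the lower genes only Csf3r was above the floor in both arrays. Summed signals were 20698 in the CX3CR1- and 15992 in the CD11b+ cells, of which Il1r2 made up 18326 and 4581. At or above the floor were 5 of 15 against 12 of 15 markers. Lcn2 (18.2 against 310.0), Mmp8 (17.9 against 215), Ngp (71.2 against 222) and Camp (32.5 against 104) passed the floor only in the CD11b+ cells, while Cxcr2 (6.78 against 73.5), Elane (41.1 against 46.3) and Mpo (31.9 against 6.02) did so in neither. The part of neutrophils in the ratios of Chil3, S100a8, S100a9 and Hp was not tested.

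Tissue macrophage genes were lower in part, and many stood well above the floor in both populations, while Siglec1, Vsig4 and Maf were below it in both. Of 18 members 7 were lower and 0 higher (median -0.58). The lower ones were Cbr2 (498 against 1955), a carbonyl reductase, Gas6 (614 against 2336), which bridges dying cells to their receptors, Lyve1 (455 against 1725), a hyaluronan receptor, and the folate receptor gene Folr2 (364 against 1183). Fcgr1 (912 against 2462), the high-affinity receptor for immunoglobulin G, Cd163 (718 against 1752), which clears hemoglobin, and Stab1 (1204 against 2714), a scavenger receptor, completed them. The growth factor receptor gene Csf1r was 21522 in the CX3CR1-, 27758 in the CD11b+, 4191 in the DC and 32267 in the CX3CR1high array, and the complement gene C1qa was 13027 in the CX3CR1-, 12245 in the CD11b+, 1792 in the DC and 28998 in the CX3CR1high array. Both were within 2-fold between the 2 populations, as was C1qc (7270.1 against 9579), and much higher in either than in the DCs. The CX3CR1- array held DC and macrophage transcripts side by side, and whether these came from the same cells was not measured. Adgre1, which encodes F4/80, was 2399 against 3559.6 and Mrc1, the mannose receptor, 3436 against 5178, also within 2-fold.

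Of 10 Toll-like receptor and adaptor genes 4 were lower and 0 higher (median -0.72). They were Tlr2 (1594 against 4658), which senses lipoproteins, Tlr4 (158 against 366), which senses lipopolysaccharide, Tlr5 (144 against 299), which senses flagellin, and Tlr7 (137 against 275), which senses RNA. Complement genes had 5 of 14 lower and 1 higher, the latter being Itgax. Those lower were the proteases C1ra (214 against 752) and C1s1 (506 against 2031, 4.01-fold), their inhibitor Serping1 (1129 against 3938), and the anaphylatoxin receptors C3ar1 (1005 against 2251) and C5ar1 (113 against 362). In the lysosome list 2 of 21 were lower, Npc1 and Ctsk, and 0 higher (median -0.43), against 5.19% lower over all genes with a ratio. Spic, the ETS factor named in the series title, was 102 against 239 on 1 probe set, just under the floor in the CX3CR1- cells and at least 2.32-fold lower, and 176 against 464 on the other, 2.63-fold lower. In the heme and iron list 1 of 15, Spic, was lower and 1, the iron hormone gene Hamp (331 against 46.7, at least 3.22-fold), higher. Hmox1 (2595 against 2861), which breaks down heme, was within 2-fold.

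**Figure D3:**
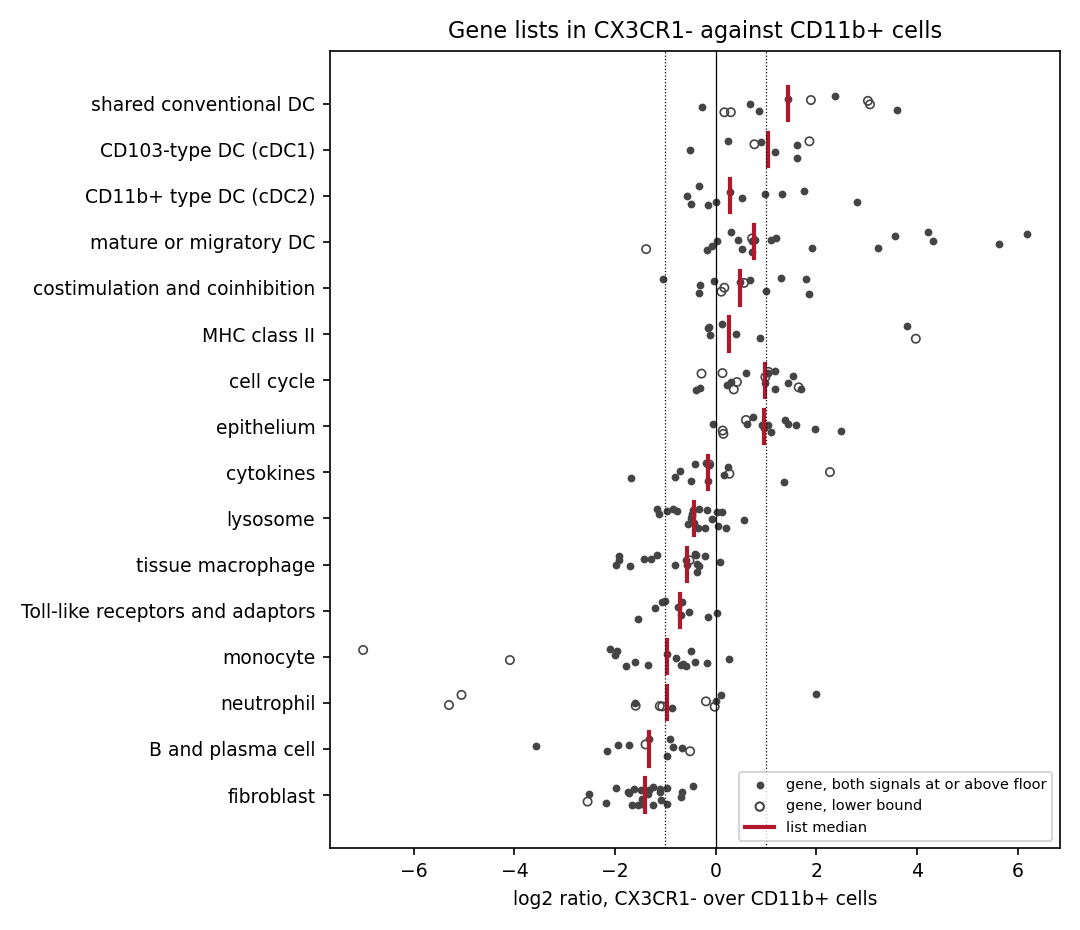
Log2 ratio, CX3CR1- over CD11b+ cells, of each gene with a ratio in 16 lists (filled points measured on both sides, open points lower bounds), with the list median as a red bar and dotted lines at 2-fold. The medians of the DC lists lie right of 0, with Ccl22 and Ccl17 furthest out, but each of these lists has members on both sides. Those of the monocyte, neutrophil, B and plasma cell and fibroblast lists lie left of 0.

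Immunoglobulin chain genes were lower in the CX3CR1- cells, with 10 of 14 chains with a ratio lower and 0 higher (median log2 ratio -1.94). This family was gathered by symbol after the values had been seen, so its counts support nothing. Some chains had a ratio only because they passed the floor in the CD11b+ cells. The variable light chain Iglv1 was 431 in the CX3CR1-, 5155 in the CD11b+, 2142 in the DC and 5576 in the CX3CR1high array (12.0-fold lower), and was lowest in the CX3CR1- cells. Igkv15-103 was 294 in the CX3CR1-, 4043 in the CD11b+, 844 in the DC and 3282 in the CX3CR1high array (13.8-fold lower). Igkv6-14 (8.51-fold), Igkv4-72 (5.12-fold), Igkv9-120 (at least 8.62-fold) and Igkv14-111 (at least 6.84-fold) were lower too, and such probe sets may not tell related chains apart. Igha, the constant region of IgA, was high in both (28278 against 53324). Plasma cell genes stood beside them. Jchain, which joins IgA molecules, was 10329 against 34144, the B cell coactivator Pou2af1 205 against 921 (4.49-fold lower) and Tnfrsf17, the plasma cell receptor BCMA, 55.5 against 271. Txndc5, which folds secreted proteins, was 520.5 against 2473 (4.75-fold lower). Over the B and plasma cell list 6 of 11 were lower, Cd79b (120.2 against 300.4) and Ighm (1156 against 4468) included, and 0 higher (median -1.32), and summed signals were 52672 against 118470. Ly6d was 64.2 against 518 (at least 5.04-fold lower). The part of plasma cells in these ratios was not tested. The B cell genes Ms4a1 and Pax5 fell below the floor in both arrays.

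Fibroblast genes were lower nearly throughout their list, with 19 of 24 lower and 0 higher (median -1.40). Mgp, an inhibitor of calcification, was 1247 in the CX3CR1-, 7126 in the CD11b+, 345 in the DC and 1341 in the CX3CR1high array (5.71-fold lower). The collagen Col3a1 was 9639 in the CX3CR1-, 28325 in the CD11b+, 2360.5 in the DC and 6261 in the CX3CR1high array and was 2.94-fold lower. Dcn, which encodes decorin, was 4971 in the CX3CR1-, 15299 in the CD11b+, 1173 in the DC and 4005 in the CX3CR1high array (3.08-fold lower). Both were above the floor in every population and lowest in the DCs. Mfap4 (98.9 against 601, at least 5.84-fold) and Prelp (132 against 599, 4.55-fold) were called lower as well. Other lower calls, outside the list, were Col18a1, a basement membrane collagen (113 against 463, 4.11-fold), Igfbp7 (2461 against 10399, 4.23-fold), Igfbp3 (427 against 2102, 4.93-fold), Rarres2, which encodes chemerin (548 against 3399.7, 6.21-fold), Plpp3 (542 against 2942, 5.43-fold), the protease inhibitor Slpi (894 against 4351, 4.86-fold) and Tcf21, a mesenchymal transcription factor (489.9 against 2150.2, 4.39-fold). Of 5 IGF-binding protein genes 4 were lower. Summed fibroblast signals were 39295 in the CX3CR1- and 113048 in the CD11b+ cells, against 8819 in the DCs and 29318 in the CX3CR1high macrophages. Smooth muscle genes were within 2-fold (8 of 8), as were 10 of 11 endothelial genes, with Vwf higher (299 against 131). The part of stromal cells in the ratios of Ccl11, Cxcl12, C1s1 and Serping1 was not tested.

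Epithelial markers ran the opposite way. Of 15 with a ratio 7 were higher and 0 lower (median 0.95), with Krt8 at 2530.4 against 932, Krt19 at 630.0 against 242, Muc3 at 633 against 162, Cldn7 at 413 against 136, Car1 at 681 against 317 and Phgr1 at 229 against 112. Their summed signals were 8979 in the CX3CR1- and 3881 in the CD11b+ cells, against 27289.8 in the CX3CR1high macrophages. At or above the floor were 15 and 12 of 19, and Slc26a3 (42.7 against 37.8) and Krt20 (56.0 against 31.3) were under it in both. Cdh1, which encodes E-cadherin and is also found on some DCs, was 800.0 in the CX3CR1-, 143 in the CD11b+, 496 in the DC and 640.0 in the CX3CR1high array and 5.58-fold higher. Of 7 eosinophil markers, 4 were at or above the floor in the CX3CR1- cells and 3 in the CD11b+ cells, but 0 in the DCs and 0 in the CX3CR1high macrophages. Siglecf was 544 in the CX3CR1-, 203 in the CD11b+, 74.0 in the DC and 60.2 in the CX3CR1high array (2.67-fold higher), so that the 2 compared arrays stood above the others. Alox15 was 900.2 against 530.0 and the eotaxin receptor gene Ccr3 141 against 52.8. Ear3, chosen after its value was seen, was 407 against 78.5 (at least 3.95-fold higher), although its family holds near-identical copies. In the eosinophil list 1 of 4 was higher, with summed signals of 1765 against 958. Of the granule genes, Prg2 was just above the floor in both (109.6 against 124), and Epx (3.44 against 12.2) and Prg3 (7.77 against 8.58) were under it. Mast cell proteases were under the floor, among them Cpa3 (44.1 against 3.03), Mcpt1 (28.9 against 32.5) and Tpsb2 (13.9 against 30.8), and 1 of 3 mast cell genes with a ratio, Kit, was higher. The part of epithelial cells and eosinophils in these ratios was not tested.

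The called genes were then placed in the other arrays, as a description. The 42 higher genes had median signals of 1645 in the CX3CR1- cells, 150.2 in the CD11b+ cells, 319 in the CX3CR1high macrophages and 2238 in the DCs. The highest signal of the series was in the CX3CR1- cells for 24 of them, in the DCs for 17 and in the CX3CR1high macrophages for 1, Pla2g2d. The DC signal lay above the log2 midpoint between the 2 compared arrays for 33 genes and the CX3CR1high signal for 7. The 36 lower genes had medians of 252, 1799, 643 and 98.4 in the same order. They were highest in the CD11b+ cells for 29 and in the CX3CR1high macrophages for 7. Across all genes, 44 were at least 2-fold above all 3 other populations in the CX3CR1- cells and 170 in the CD11b+ cells. At 4-fold the counts were 2, which were Cd209a and Cd209c, and 16, led by Hp and Chil3.

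**Figure D4:**
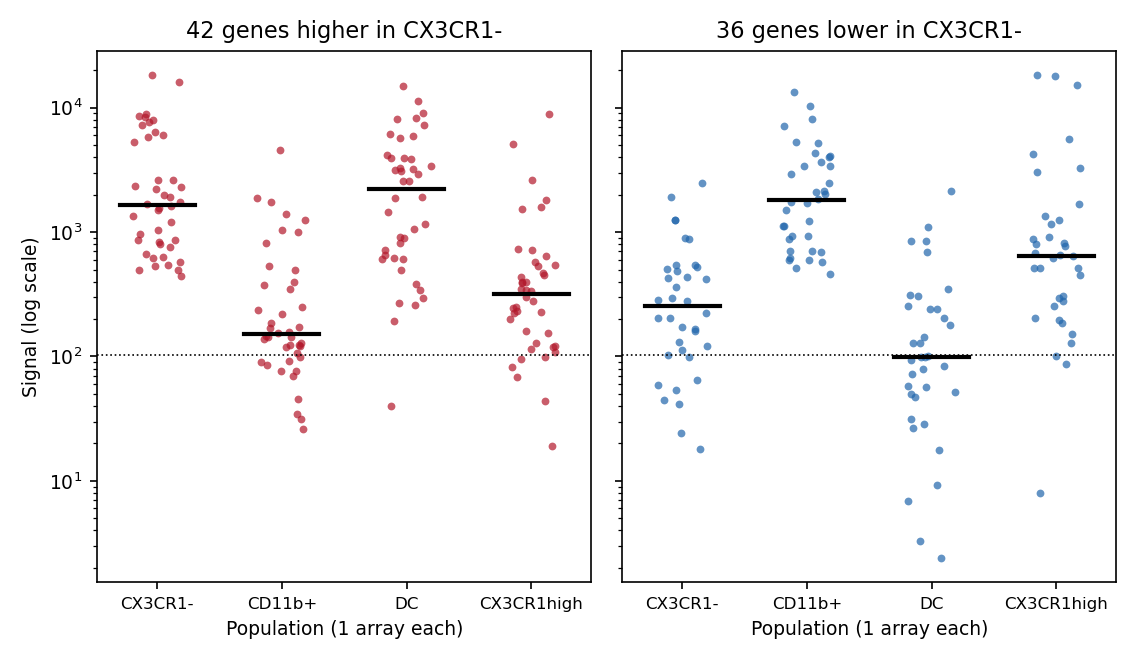
Signals (log scale) of the 42 genes at least 4-fold higher (left) and the 36 at least 4-fold lower (right) in the CX3CR1- than in the CD11b+ cells, in each of the 4 arrays, with each gene a point, medians as black bars and the floor dotted. The CX3CR1- and CD11b+ columns differ because they chose the genes, while the higher genes have a median of 2238 in the DCs and the lower ones of 98.4.

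For the counts that follow, 3.55% of all genes with a ratio were higher and 5.19% lower by 2-fold or more. Ribosomal protein genes were within 2-fold in 42 of 43 cases, the exception being Rpl22, and respiratory chain and ATP synthase genes in 81 of 81. Of 10 reference genes 10 were within 2-fold (median -0.16). Immediate early genes, which also answer to handling of cells, had 1 of 16 lower, Ier3, and a median of -0.50. Heat shock genes had 2 of 12 lower, Hspb1 and Dnajb1 (median -0.44). Interferon response genes had 1 of 14 higher, Usp18, and 3 lower, Irf7, Oas2 and Rtp4. The lipid list had 1 of 13 higher, Gpnmb (1809 against 623), and 1 lower, Trem2 (209 against 428). Among AP-1, IRF and NF-kB factors 2 of 24 were higher, Batf3 and Etv3, and 2 lower, Irf7 and Spic. C-type lectin receptor genes had 4 of 17 higher and 3 lower, the latter including Clec4d (3191 against 7782). Growth factor receptors had 2 of 17 higher, Flt3 and Kit, and 1 lower, Csf3r. Actin and motility genes had 2 of 21 higher, Fscn1 and Scin, and 0 lower. Efferocytosis genes had 3 of 12 lower (median -0.62), which were Gas6, Stab1 and Colec12. Of 6 Fc receptor genes 1 was lower, Fcgr1. Plasmacytoid DC markers had 2 of 7 higher, Cd209d and Klk1, and 1 lower, Ly6d, and neither of the 2 enteric glia and neuron genes with a ratio differed by 2-fold. Among integrin genes 5 of 16 were higher, including Itgb7 (2275 against 1126), the beta chain that pairs with CD103, and 0 were lower.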

How the data were processed

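RNA from 4 sorted populations was hybridised to 3' arrays, 1 array each. The authors turned the scans into intensities on a linear scale with MAS5, per the submitters' processing notes, and deposited 1 value per probe set. The number of the MAS5 release was not given in the sources used here. The array mean with 2% trimmed from each end was 500.3 on every array. No further normalization was done. Of 22690 probe sets, 64 were controls, 20380 named 1 gene in the platform annotation, 691 several and 1555 none. Of the former, 99.9% were found in the RefSeq mouse annotation by Entrez number, with 0 symbols changed. Each gene was read from its brightest probe set by mean log2 signal over the arrays, preferring those not ending in _x_at. Signals were floored at the median of non-control probe sets, 103. Genes were called at 4-fold and list members counted at 2-fold. The text names list members and, in each direction, the 15 largest measured ratios and up to 10 of the largest bounds. Genes with an opposite probe set and predicted names were passed over in this ranking. Only 9 of the lower genes were bounds. Members of the families gathered by symbol and some other genes, among them Vdr, Col18a1 and Pla2g2d, were named outside this rule. The members and the 41 lists (653 genes, 570 measured) were chosen with earlier results of these data known. No test was possible with 1 array per population, and the ratio code was tested on simulated data. Alternatives varied the floor, a pseudocount, scaling and probe set choice. Python 3.11.15 with pandas 2.3.3 and numpy 2.4.6 was used.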

Additional observations from a re-analysis of the deposited data

How the results depend on the processing

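With 1 array per population, 8 processing alternatives were run. Signals near background limit which genes have a ratio at all. The counts of 42 higher and 36 lower genes became 87 and 77 with the floor at the 25th percentile of signals (22.9), 19 and 18 with it at the 75th percentile (453), and 609 and 568 with no floor. A pseudocount at the 25th percentile in place of the floor gave 64 higher genes, and 47 lower. Lowering or removing the floor leaves measured ratios unchanged and can only widen bounds. That all 42 and 36 called genes were kept there was therefore fixed in advance. Others were added, while raising the floor leaves fewer genes with a ratio. Quantile normalization gave 45 and 37, equal medians 46 and 26, and the mean over probe sets 36 and 29. Of the called genes, 41 higher and 34 lower stayed called with quantile normalization and 42 and 26 with equal medians. With the mean over probe sets 34 and 26 stayed called, and with the pseudocount 39 and 29. Leaving out all probe sets ending in _s_at, _x_at or _a_at gave 32 and 32. There 9 of the higher and 2 of the lower called genes were no longer measured. All 49 genes named by rank kept their direction in every setting where they had a value. They were picked as the largest ratios of these same arrays, so this was nearly assured and supports nothing. Many fell short of 4-fold in at least 1 setting, among them Flt3 (lowest log2 ratio 0.89), Zbtb46 (0.93), Mmp12 (1.79) and H2-Oa (1.89). With the floor at the 75th percentile, 37 of the 49 log2 ratios moved by at least the probe set SD of 0.31. Il12b came closest to 0, with a log2 ratio of 0.13 as the lowest over the settings, and the lowest for Fscn1 was 0.42. The medians of 6 lists changed sign in at least 1 setting, namely AP-1, IRF and NF-kB factors, T, NK and innate lymphoid cells, gate genes, mast cells, plasmacytoid DC and reference genes. No paired analysis was possible because the labels give no replicate numbers and each group is 1 array.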
